A study of Homo sapiens with 10 samples.

Results

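The 10 genes described here encode cohesin and the proteins that load, hold, release and position it: SMC1A, SMC3, RAD21, STAG1, STAG2, PDS5A, PDS5B, WAPL, NIPBL and CTCF. They were measured by RNA sequencing of A549, a human lung adenocarcinoma cell line, in 5 groups of 2 libraries each. The groups were DMSO alone as the control, DRB at 10 and 25 μg/mL, and α-amanitin at 1 and 2 μg/mL for 24 h. They are called DRB10, DRB25, AMA1 and AMA2 after the agent and its concentration. DRB blocks the kinases that release RNA polymerase II into elongation, and α-amanitin is a mushroom toxin that binds the polymerase itself. The sources used here give no duration for DRB or DMSO, and the study's methods describe the control as untreated. All 10 libraries held polyadenylated RNA. Over all introns, the unspliced share of reads at splice sites was 34.7% and 50.7% in the DRB25 libraries. It was 15.3% to 26.8% in the other libraries, and the cause was not tested. Members were selected by name and by splice sites on GRCh37 that match these genes in GENCODE release 44, and the measured values the rule used were the listed split reads of introns and the inclusion and skipping reads of exons. The genes were named with results of these libraries already known, so which introns and exons were listed is a description, and no result here is independent of that choice. The rule gave 293 of 126404 listed introns and 402 of 270665 listed exons, in 10 of 10806 genes with an assigned intron, and no member intron was shared with another gene. Of the member introns, 289 began with GT and ended with AG on the transcribed strand.

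Cohesin is a ring of SMC1A, SMC3 and RAD21 that encloses DNA, with STAG1 or STAG2 bound to RAD21. NIPBL loads the ring and drives loop extrusion, PDS5A and PDS5B sit on RAD21 and regulate both its release and its retention, WAPL opens the ring, and CTCF is the DNA-binding protein at which moving cohesin stops. In dividing cells such as A549 the same ring holds sister chromatids together until mitosis, and SMC1A and STAG2 are on the X chromosome.

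A split read crosses a splice junction, and its count over an intron was summed over the introns of a gene. Library totals of split reads ranged from 2899344 in DRB25 library 1 to 6498515 in AMA1 library 2, and this range sets the counting precision. The files keep an intron or an exon only above a minimum. In each of the 10 libraries, the lowest count of an intron with no unspliced read and no competing intron was 11, and the lowest inclusion count of an exon with no skipping or unspliced read was also 11. An unlisted intron or exon of this kind is therefore taken to have had at most 10 reads, which is not the same as none. This ceiling is read from the listed counts. The lowest unspliced, inclusion or skipping count above 0 was 3, so a count of 0 can hide a few reads. The study's methods also filtered split reads by the entropy of their offsets, annotation status and splice-site dinucleotides. Of 10 A549 markers, 6, the epithelial keratins KRT7, KRT8 and KRT18 among them, were present in every library and 2 (EPCAM and CDH1) had no assigned intron. The other 2 had no listed read in DRB25. In DMSO, AKR1B10 was read 71 and 131 times and AKR1C1 328 and 137 times. AKR1B10 also had no listed read in AMA2 library 1. Of 7 markers of leukocytes, fibroblasts and endothelium, 5 had no listed read in any library, PTPRC, PECAM1 and VWF among them. The sum of the 7 was between 16 and 677 split reads per library, from COL1A1 (0 to 677) and CD68 (0 to 16), and was 677 and 59 in DMSO and 70 and 16 in DRB25, and the part of these cells in the results was not tested. In bulk RNA, fewer cells and less RNA per cell cannot be told apart.

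In DMSO the levels of the members differed widely when compared per intron, in CPM (split reads scaled to a common library size), over introns listed in both DMSO libraries. RAD21 was highest, with a median of 24.2 CPM per intron over 13 introns (range 10.2 to 34.7). SMC3 followed with 11.6 over 27 introns, then SMC1A and PDS5A, both with 9.13 over 24 and 30 introns, and CTCF with 7.85 over 11. STAG2 was at 5.15, WAPL at 4.82, STAG1 at 4.06, NIPBL at 3.75 and PDS5B at 3.67. The ranges of neighbours in this order overlapped, and the listing minimum removed part of the introns of the lower genes. STAG2 had 29 and 27 of 34, PDS5B 16 of 34 in both, and STAG1 14 and 18 of the 33 introns of its reference (MANE) transcript listed in the DMSO libraries, and NIPBL had 29 of 46 in both.

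Most members had fewer split reads with DRB at 25 μg/mL than in DMSO, but unevenly within the ring. SMC3, the partner of SMC1A in the ring, was read 1382 and 1337 times in DMSO and had no listed intron in either DRB25 library. SMC1A was read 901 and 883 times in DMSO and still 424 and 637 times in DRB25. RAD21, which closes the ring, was read 1206 and 1378 times in DMSO and 379 and 737 times in DRB25. The ring's 3 subunits thus differed in the same libraries, from all introns under the listing minimum to nearly all introns listed: 0 and 0 of 28 for SMC3, 22 and 24 of 24 for SMC1A, and 12 and 13 of 13 for RAD21.

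The 3 subunits were also measured on a scale corrected for library size and composition (TMM, trimmed mean of M values). SMC1A (ENSG00000072501, chrX:53401070-53449677, minus strand) had 218 and 190 CPM in DMSO and 198 and 189 CPM in DRB25, and limma voom with Benjamini-Hochberg adjustment gave a log2 fold change of -0.09 (SE 0.12, adjusted p = 0.53). The DRB25 and DMSO libraries of SMC1A lay in one range. RAD21 (ENSG00000164754, chr8:117858173-117887015, minus strand) had 291 and 296 CPM in DMSO and 177 and 219 CPM in DRB25. The groups did not overlap, and RAD21 fell by 0.58 on the log2 scale (SE 0.13, adjusted p = 0.0119). That call missed the threshold without DMSO library 1 (adjusted p = 0.052) and without DMSO library 2 (adjusted p = 0.0694). SMC3 (ENSG00000108055, chr10:112327442-112365806, plus strand) gave no usable fold change from counts of 0, so its change was bounded from its internal exons listed in both DMSO libraries. With every unlisted exon allowed 10 inclusion reads, the ceiling taken here, SMC3 was at least 4.78-fold lower in each DRB25 library than the DMSO mean. Of the 27 SMC3 exons used for this, 1 and 11 were listed in the DRB25 libraries.

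**Figure D1:**
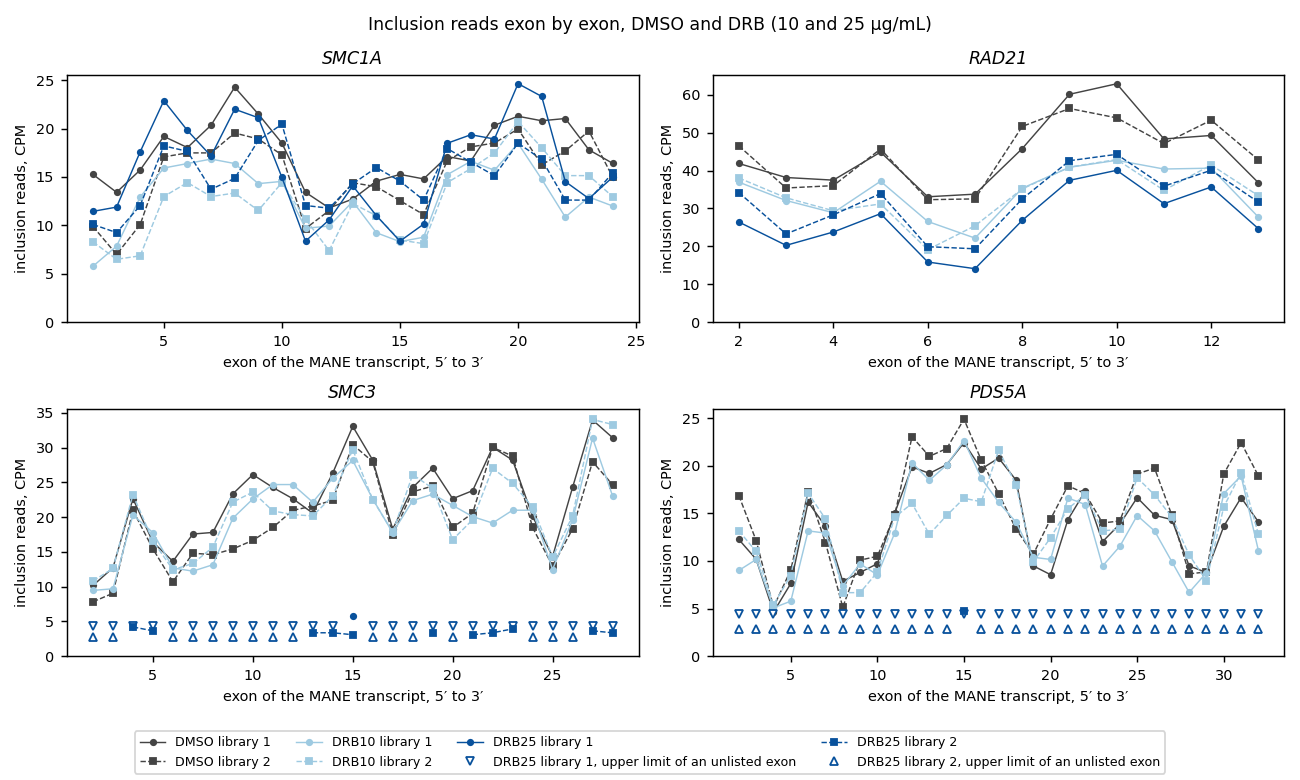
Inclusion reads, as CPM, of each internal exon of the MANE transcript, 5′ to 3′ on the horizontal axis, for SMC1A, RAD21, SMC3 and PDS5A in the DMSO, DRB10 and DRB25 libraries. Filled symbols are listed exons and open triangles are the upper limit taken for an unlisted exon in a DRB25 library (10 reads). For SMC1A and RAD21 the DRB25 exons were listed along the whole transcript, while 1 and 11 of 27 SMC3 exons and 0 and 1 of 31 PDS5A exons were listed in the DRB25 libraries.

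The regulators of the ring were low in DRB25 as well. PDS5A (ENSG00000121892, chr4:39824483-39979576, minus strand) was read 946 and 1188 times in DMSO and had no listed intron in DRB25, which is at least 3.32-fold lower on inclusion reads of its exons. CTCF (ENSG00000102974, chr16:67596370-67673080, plus strand) was read 316 and 363 times in DMSO and 0 and 64 times in DRB25, at least 2.50-fold lower. STAG2 (ENSG00000101972, chrX:123094062-123556514, plus strand) was read 624 and 596 times in DMSO and 11 and 24 times in DRB25, at least 1.77-fold lower. In these genes every DRB25 library lay below both DMSO libraries.

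For the remaining members the listing minimum limits what can be said of the size of the difference. NIPBL (ENSG00000164190, chr5:36876871-37066515, plus strand) was read 509 and 469 times in DMSO and 36 times in each DRB25 library. STAG1 (ENSG00000118007, chr3:136055078-136471245, minus strand) went from 235 and 322 split reads to no listed intron. PDS5B (ENSG00000083642, chr13:33160589-33352157, plus strand) went from 241 and 273 to no listed intron. These genes had few reads per intron in DMSO, close to the listing minimum, and their bounds from inclusion reads of exons were near 1. NIPBL was at least 1.29-fold lower, STAG1 1.25-fold and PDS5B 1.10-fold. The exons used were those listed in both DMSO libraries, which favours lower values in DRB25. With 10 reads at each unlisted intron, the log2 fold changes were -0.04 for NIPBL, -0.23 for STAG1 and 0.18 for PDS5B. The direction for PDS5B thus differed between the 2 counts. WAPL (ENSG00000062650, chr10:88195013-88281549, minus strand) had 290 and 352 split reads in DMSO and 62 and 176 in DRB25, a log2 change of -0.81 (SE 0.29, adjusted p = 0.0528).

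In the fit over all genes (limma voom), 8 of the 10 members were called lower in DRB25 than in DMSO and none higher, SMC1A and WAPL being the exceptions. Over all 9313 genes tested, 41.1% were called lower in the same comparison. The median log2 fold change of all genes was -1.03, with 3829 of 5678 calls lower. Scaled by total split reads instead it was -1.49, with 4754 of 6085 calls lower, and all 10 members were then called, SMC1A with -0.56 (adjusted p = 0.0115). In a count chosen after the data were seen, only introns listed in both DMSO libraries were summed and each unlisted intron was given 10 reads. There, 5 of the 10 members were called lower, against 20.1% of the 7941 genes tested that way. The introns enter through their DMSO counts, which favours lower values in DRB25, so this count is a description and no independent support. These were SMC3 with a log2 fold change of -1.68, PDS5A with -1.15, CTCF with -0.88, RAD21 with -0.60 and STAG2 with -0.49. Under that count WAPL was at -0.16, and the calls of PDS5B, NIPBL and STAG1 were lost. The main count fell to 4 members without DRB25 library 1 (CTCF, NIPBL, RAD21 and STAG2) and to 4 without DRB25 library 2 (NIPBL, RAD21, STAG2 and WAPL), so the calls of SMC3, PDS5A, PDS5B and STAG1 needed both. CTCF also lost its call without DMSO library 1 and without DMSO library 2.

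**Figure D2:**
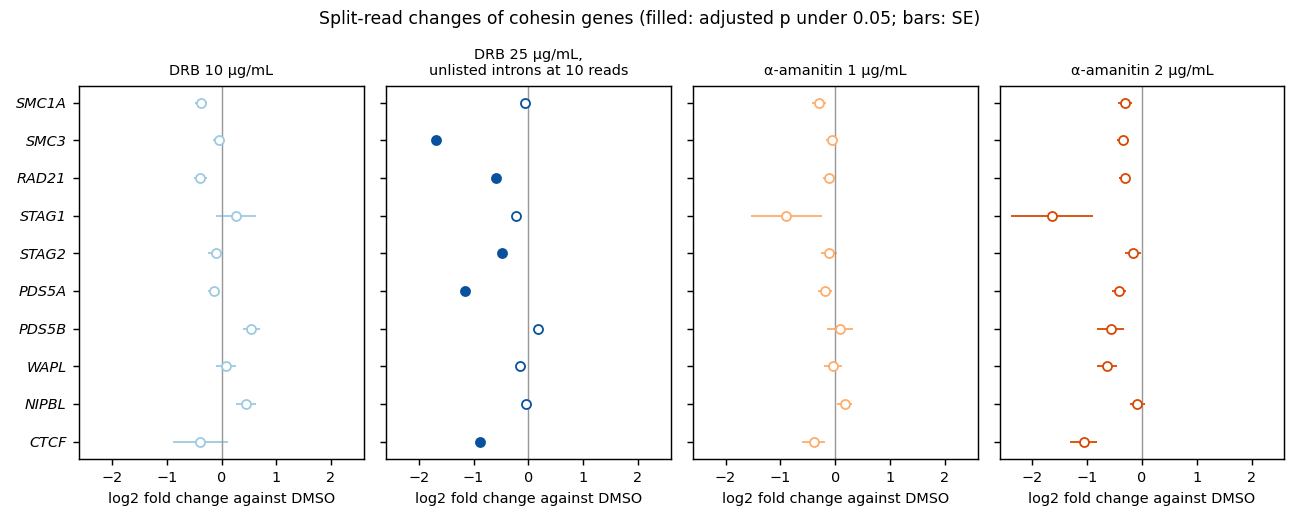
Log2 fold change of split reads against DMSO for the 10 genes, in 1 panel per treatment, with bars for the SE where the fit gave one and filled points for an adjusted p under 0.05. The DRB 25 μg/mL panel counts each unlisted intron at 10 reads, and there SMC3, PDS5A, CTCF, RAD21 and STAG2 are filled, while no point is filled in the other panels.

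At 10 μg/mL of DRB none of the 10 members passed the limma voom test against DMSO, where 14.8% of 9313 genes passed in either direction. At an unadjusted p under 0.05 there were 4 members, against 31.7% of all genes, and limma-trend called 0. The members lay on both sides of 0. PDS5B had 58.2 and 58.7 CPM in DMSO and 79.7 and 89.7 CPM in DRB10, with a log2 fold change of 0.54 (SE 0.15, adjusted p = 0.0694). NIPBL had 123 and 101 CPM in DMSO and 134 and 167 CPM in DRB10, with 0.45 (SE 0.18, adjusted p = 0.153). RAD21 was at 225 and 223 CPM and SMC1A at 156 and 156 CPM in DRB10, with -0.39 (adjusted p = 0.0839) and -0.37 (adjusted p = 0.0913). Both DRB10 libraries lay above both DMSO libraries for PDS5B, NIPBL and WAPL, and below them for RAD21, SMC1A, CTCF and PDS5A. The share of all genes separated in this way was not counted, so this is a description. SMC3 was at 286 and 309 CPM in DRB10 and 334 and 287 CPM in DMSO, so these groups overlapped. The changes of the other members were CTCF -0.39 (SE 0.50), PDS5A -0.14 (SE 0.11), STAG1 0.26 (SE 0.36), STAG2 -0.10 (SE 0.14) and WAPL 0.08 (SE 0.18). Their adjusted p lay between 0.424 and 0.806. The spread of a gene was taken over all 6 libraries of the fit, DRB25 included. With only the 2 groups compared, 2 members were called, where 1952 of 9050 genes were called in either direction. Calls over all genes were 605 of 1378 lower, and 564 of 1687 with total split reads. The signs of SMC3 and STAG2 turned when total split reads set the scale, to 0.08 and 0.03.

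Between the DRB doses, 8 of 10 members were called lower at 25 than at 10 μg/mL, where 43.6% of 9313 genes were called lower (4062 of 5852 calls, and 5360 of 6530 with total split reads). The members not called were RAD21 (log2 fold change -0.19, SE 0.13, adjusted p = 0.255) and SMC1A (0.28, SE 0.13, adjusted p = 0.1, and -0.33 with total split reads). WAPL passed in this comparison, with -0.89 (SE 0.28, adjusted p = 0.0371). The group mean of RAD21 was 294 ± 3.41 CPM in DMSO, 224 ± 1.52 in DRB10 and 198 ± 30.03 in DRB25 (SD, n = 2). With each unlisted one of the same DMSO-listed introns at 10 reads, 3 members were called lower between the doses, SMC3 at -1.62, PDS5A at -0.99 and CTCF at -0.58. The main count fell to 3 members without DRB25 library 1 (CTCF, NIPBL and STAG2) and to 3 without DRB25 library 2 (NIPBL, STAG2 and WAPL). CTCF and WAPL were not called without DRB10 library 1 or without DRB10 library 2.

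**Figure D3:**
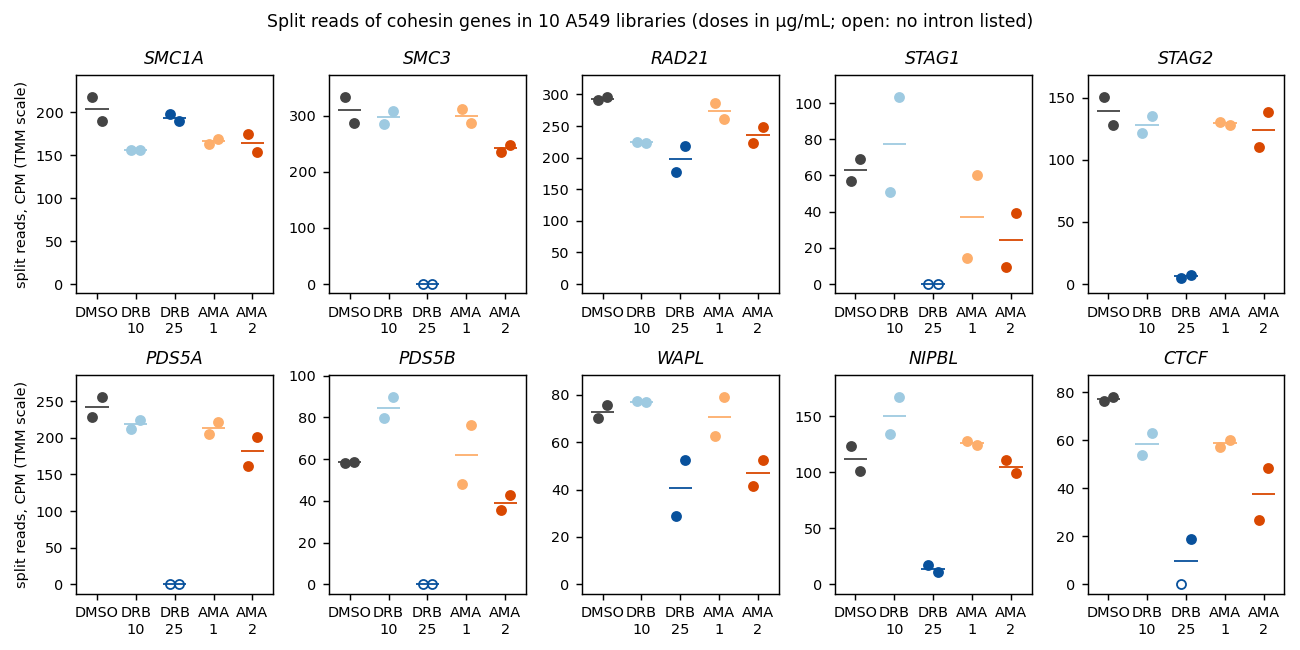
Split reads, as CPM (TMM scale), of each gene in the 10 libraries, by treatment, with a line at the group mean and open points where no intron of the gene was listed. SMC3, STAG1, PDS5A and PDS5B are open in both DRB25 libraries and CTCF in 1, while SMC1A and RAD21 stay at 177 CPM or above in them.

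With α-amanitin no member passed the test on group alone at either dose, and CTCF came closest. With the replicate number as a block, 5 members were called at 2 μg/mL against DMSO, where 11% of all genes were called lower. No label says that a replicate number marks a shared batch. At 1 μg/mL no member and 0% of the 9474 genes tested passed the limma voom test; at an unadjusted p under 0.05 there was 1 member, SMC1A, and limma-trend called 0. At 2 μg/mL no member passed, against 6.03% of genes in either direction; 6 members had an unadjusted p under 0.05, against 28.4% of all genes, and limma-trend called 0. All 10 log2 fold changes at 2 μg/mL were below 0, with a median of -0.38 against 0.05 for all genes. Of the genes called, 354 of 571 were lower, and 265 of 536 with total split reads. Both α-amanitin doses and both DRB doses were compared with the same DMSO libraries.

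CTCF was closest to the threshold at 2 μg/mL. It had 76.3 and 78.0 CPM in DMSO, 57.3 and 60.2 CPM in AMA1 and 26.8 and 48.5 CPM in AMA2, so the groups did not overlap. In AMA2 its log2 fold change was -1.07 (SE 0.24, adjusted p = 0.0509) and it passed without AMA2 library 2 (adjusted p = 0.0309). WAPL had 70.0 and 75.6 CPM in DMSO and 41.4 and 52.4 CPM at 2 μg/mL, with -0.63 (SE 0.18, adjusted p = 0.0831). PDS5B had -0.57 (SE 0.25, adjusted p = 0.187). STAG1 was listed at 64 and 401 split reads in AMA1 and 50 and 236 in AMA2, against 235 and 322 in DMSO. Library 1 of each α-amanitin dose was low for STAG1, and its log2 fold change at 2 μg/mL was -1.64 (SE 0.74, adjusted p = 0.199). The changes of the rest at 2 μg/mL were SMC3 -0.35 (SE 0.11), PDS5A -0.42 (SE 0.13), RAD21 -0.31 (SE 0.10), SMC1A -0.31 (SE 0.12), STAG2 -0.16 (SE 0.14) and NIPBL -0.08 (SE 0.13), with adjusted p from 0.101 to 0.704. At 1 μg/mL the members ranged from -0.89 for STAG1 to 0.17 for NIPBL. Between the 2 doses of α-amanitin no member and 0% of genes passed, with 4 members at an unadjusted p under 0.05 and 0 calls by limma-trend. These were WAPL at -0.60 (SE 0.18), CTCF at -0.67 (SE 0.24), PDS5B at -0.66 (SE 0.24) and SMC3 at -0.29 (SE 0.11).

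Splicing of the members was next examined exon by exon. The inclusion level Ψ is inc / (inc + 2 × exc), where inc counts reads joining an exon to its neighbours and exc counts reads that skip it. The paralogs STAG1 and STAG2 each have an exon of 111 nt, 4th from the last in the MANE transcript of both (exon 31 of STAG1, exon 32 of STAG2) and wholly coding. These were chosen after their values were seen, and in A549 STAG2 mostly skipped its exon while STAG1 mostly included it. The sequences are those of GRCh37 with the exon in capitals, after the last 20 bases of the intron before it and with 10 bases of the intron after it, and are shown because the pair can be compared base by base.
STAG2 exon 32, chrX:123224704-123224814, plus strand: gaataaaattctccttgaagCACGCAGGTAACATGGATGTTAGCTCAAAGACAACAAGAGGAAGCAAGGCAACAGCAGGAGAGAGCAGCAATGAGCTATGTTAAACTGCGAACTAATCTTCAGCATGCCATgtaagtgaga
STAG1 exon 31, chr3:136060283-136060393, minus strand: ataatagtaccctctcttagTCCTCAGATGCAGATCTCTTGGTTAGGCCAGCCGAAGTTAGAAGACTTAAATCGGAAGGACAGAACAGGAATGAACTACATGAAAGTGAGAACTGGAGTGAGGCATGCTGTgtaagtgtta
Aligned without gaps, 52 of the 111 exon bases were identical (46.9%), and both introns after the exon began with gtaagt. Both exon lengths are multiples of 3.

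STAG2 exon 32 was mostly skipped. It had 12 and 5 inc reads against 21 and 22 exc reads in DMSO, a Ψ of 22.2% and 10.2%. In DRB10 Ψ was 15.0% and 10.8%, in AMA1 0% and 22.6%, and in AMA2 0% and 9.09%. The junction after the exon was listed only in DMSO library 1 and AMA1 library 2. In the other libraries inc came at most from the junction before the exon, so Ψ may be too low there. The values of 0% mean that neither junction was listed. The spread between libraries of a group was as wide as any difference between groups, and the quasi-binomial test gave an adjusted p of 0.372 at 2 μg/mL of α-amanitin. STAG1 exon 31 was mostly included. It had 30 and 36 inc reads and no listed exc read in DMSO, and 3 and 4 exc reads beside 30 and 46 inc reads in DRB10. Skipping was listed in 1 library of each α-amanitin dose, with 3 and 4 exc reads, and its Ψ lay between 78.9% and 100% wherever the denominator reached 10. Neither exon had a read listed in DRB25. The 2 genes were not compared by a test, since the pair was chosen for this difference.

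WAPL exon 15, a coding exon of 165 nt, had skipping reads listed in both DRB25 libraries and in no other. Its sequence is shown in the same way, with the exon in capitals and the same lengths of flanking intron.
WAPL exon 15, chr10:88211724-88211888, minus strand: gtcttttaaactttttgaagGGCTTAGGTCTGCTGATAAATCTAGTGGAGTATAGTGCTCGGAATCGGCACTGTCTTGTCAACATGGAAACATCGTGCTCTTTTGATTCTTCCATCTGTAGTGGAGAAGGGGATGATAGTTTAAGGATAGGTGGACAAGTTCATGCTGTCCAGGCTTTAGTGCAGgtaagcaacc
In the 8 other libraries WAPL exon 15 had from 34 to 65 inc reads and no listed exc read. In DRB25 it had 10 and 17 inc reads against 7 and 7 exc reads, a Ψ of 41.7% and 54.8%. Both libraries showed it, and the skipping reads used an annotated intron that joins the exons on either side. A shorter unannotated form of the exon that starts at the same 5′ end, 115 nt long, shares these exc reads. Both forms met the minimum of 10 exc reads through DRB25 alone, so they could enter the quasi-binomial test only where skipping was high, and their p-values are not given as support. They were 2 of the 3 member exons tested with DRB and were counted as called, where 43.4% of all 10875 exons were called lower against DMSO and 37.0% against DRB10. The test of donors at a shared acceptor used the same 14 skipping reads and is a description for the same reason. There the skipping intron was counted as called higher and the intron of exon 15 lower, where of 6985 introns 24.1% were called higher and 22.8% lower against DMSO, and 20.9% higher and 20% lower against DRB10. With no filter on low counts the exons were not called, and none of these calls was made without DMSO library 1, DMSO library 2, DRB25 library 1 or DRB25 library 2, nor, between the doses, without either DRB10 library.

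**Figure D4:**
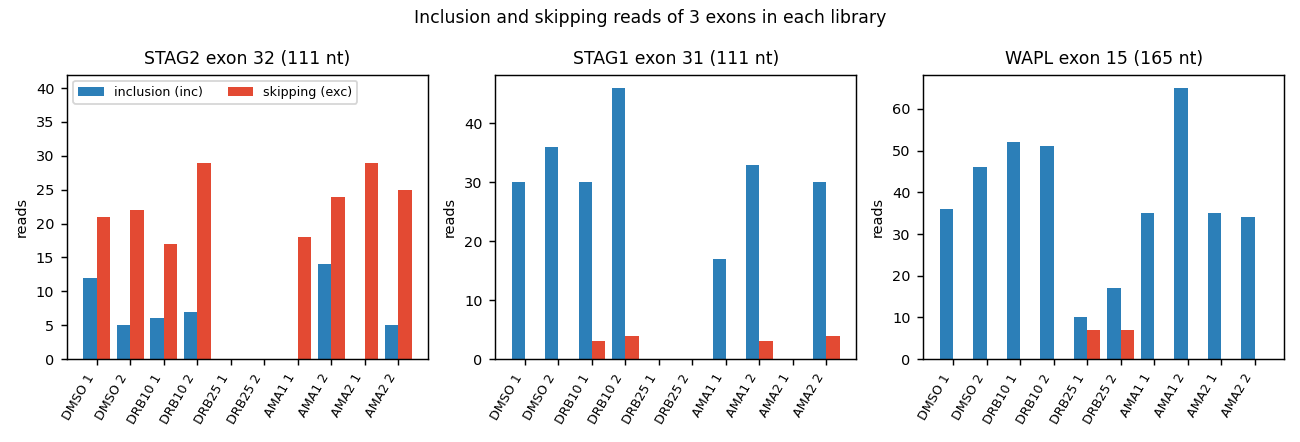
Inclusion (inc) and skipping (exc) reads of STAG2 exon 32, STAG1 exon 31 and WAPL exon 15 in each of the 10 libraries. STAG2 exon 32 has more skipping than inclusion reads in all 8 libraries with reads, STAG1 exon 31 the reverse in its 7, and WAPL exon 15 has skipping reads in both DRB25 libraries alone, 7 in each.

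Other skipping reads in the members were few. In RAD21, skipping of exon 9 (224 nt) was listed in both DRB25 libraries with 4 reads each, beside 85 and 152 inc reads. Skipping of RAD21 exons 3 and 4 together was also listed in both with 4 reads each, beside 46 and 83 inc reads of exon 3. No skipping read of these RAD21 exons was listed in the other 8 libraries, where their inc counts were higher. NIPBL exon 43 (147 nt) had 11 exc reads and no listed inc read in DRB25 library 1, and nothing listed in DRB25 library 2. These exons of RAD21 and NIPBL did not meet the read minimums of the test.

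SMC1A exons 14, 15 and 16 were skipped together by an unannotated intron, chrX:53423537-53431944, read 5 and 7 times in AMA2, 8 times in DRB10 library 2 and in no other library. Exon 14 had 42 and 69 inc reads in AMA2 and 63 and 68 in DMSO. The quasi-binomial test of its inclusion at 2 μg/mL gave an adjusted p of 0.109. In the α-amanitin fit, exon 14 met the minimum of exc reads through AMA2 alone, so this value is a description. SMC1A also had a donor inside its first intron, at position 53448964, read 5 and 6 times in AMA2 and listed in no other library. The donor of exon 1 was read 15 and 12 times in AMA2 and 32 and 33 times in DMSO. The quasi-binomial test of the inner donor gave an adjusted p of 0.0763. This donor also met the minimum through AMA2 alone, so that value is a description too. For RAD21, an annotated alternative first exon, chr8:117886602-117886767, was read 6 and 5 times in DRB10, 0 and 3 in DRB25, 6 and 0 in AMA1, 5 and 7 in AMA2 and was not listed in DMSO, against 73 and 112 reads from the main first exon in DMSO. The adjusted p of its inclusion in the quasi-binomial test was 0.132 in DRB10 and 0.138 in AMA2. It met the minimum through treated libraries alone, so these values are a description. With α-amanitin, no member passed of the 7 exons tested for inclusion or of the 12 introns tested at shared acceptors. PDS5A exon 4 (87 nt) had 6 and 3 exc reads in DRB10, 3 and 3 in AMA1 and none listed in DMSO or AMA2. CTCF had no listed exc read in any library.

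The exons with most skipping reads, among those with Ψ measured in every library, were forms that these cells hardly used. An unannotated exon of SMC1A, chrX:53448845-53448967 (123 nt), had 230 exc reads over all libraries and 4 inc reads, all in AMA2 library 1. An annotated exon of RAD21, chr8:117886358-117886567 (210 nt), had 841 exc and 0 inc reads. In NIPBL it was an annotated exon of 43 nt, chr5:36955070-36955112, with 199 exc and 0 inc reads. In WAPL it was exon 15, and the other 6 members had no such exon.

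Unspliced reads, which cross a splice site without splicing, were rarely listed in the members. No unspliced count between 0 and 3 was listed anywhere, so a few reads per site can be hidden. They came to 398 over all libraries, and 293 of these lay at 6 introns outside the MANE transcripts. Among the 261 MANE introns of the members that were listed in at least 1 library, 8 had any unspliced read listed. Of annotated introns with 20 to 100 split reads in both DMSO libraries, 2 of 106 member introns (1.89%) and 4527 of 30442 other introns (14.9%) had an unspliced read in DMSO, at median intron lengths of 1294 and 1269 bases. This was looked at after the values were seen and was not tested, and introns of 1 gene share its level. SMC3, PDS5A and RAD21 each had 1 intron with enough reads for a test with α-amanitin, RAD21 alone with DRB, and none passed (adjusted p from 0.414 to 0.988). The RAD21 intron, chr8:117861268-117862857, had 0 and 4 unspliced reads in DMSO, a pooled 0.704%, and none in DRB25. WAPL had 138 unspliced reads, of which 4 were at its MANE intron chr10:88257076-88259475. The rest were at an unannotated intron, chr10:88257058-88259475, whose acceptor lies 18 bases inside the next MANE exon, where reads of spliced RNA can cross it too. That intron had 20 and 0 in DMSO, 18 and 21 in DRB10, 0 and 18 in DRB25, 0 and 34 in AMA1 and 0 and 23 in AMA2.

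The position of reads along each gene was compared as the share of split reads in the later (3′) introns, with those listed in every library of a fit divided into an early and a late group. RAD21 had 54.5% and 53.6% in DMSO, 52.3% and 53.0% in DRB10 and 57.6% and 55.9% in DRB25. SMC1A had 50.1% and 52.5% in DMSO, 49.4% and 56.4% in DRB10 and 49.3% and 51.1% in DRB25. Neither passed the quasi-binomial test (lowest adjusted p = 0.573), and the other 8 members had too few introns listed in DRB25. With α-amanitin 9 members could be tested and 0 passed, with a lowest adjusted p of 0.933. SMC3, for example, had 54.1% and 55.9% in DMSO and 53.2% and 54.3% in AMA2, and PDS5A 44.5% and 48.1% in DMSO and 45.4% and 44.3% in AMA2.

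Other genes of chromosome structure were read from 5 lists of 47 genes, 40 of them tested, chosen like the members with earlier results known. In DRB25 against DMSO, 28 were called lower and 5 higher, with 7 of 8 condensin genes, 6 of 7 tested SMC5/6 genes and 6 of 9 tested insulator and architectural partners lower. Over all genes 41.1% were called lower and 19.9% higher. NCAPG, NCAPH and NCAPD3, subunits of the condensins that compact mitotic chromosomes, had 528 to 885 split reads in the DMSO libraries and no listed intron in DRB25. Among genes for cohesin loading, acetylation and release, 9 of 16 were lower and 3 higher. CHTF8, a subunit of an alternative clamp loader that acts in cohesion, was read 79 and 87 times in DMSO and 269 and 409 times in DRB25, with 2.68 (SE 0.23, adjusted p = 0.00064). ZNF143, a zinc finger protein found at CTCF-bound loop anchors, was read 69 and 137 times in DMSO and 275 and 412 times in DRB25, with 2.44 (SE 0.39, adjusted p = 0.00364).

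At 10 μg/mL of DRB, 4 of the 40 genes were called higher and 4 lower, where 8.30% of all genes were called higher and 6.50% lower, so the counts are near the background. SMC4, a core subunit of both condensins, was read 1343 and 1711 times in DMSO and 577 and 772 in DRB10, and fell by 1.28 on the log2 scale (SE 0.15, adjusted p = 0.0114). ESPL1, the separase that cuts RAD21 at anaphase, was read 601 and 539 times in DMSO and 250 and 211 in DRB10, and fell by 1.44 (SE 0.24, adjusted p = 0.018). SLF1 was listed at 13 and 47 reads in DMSO and at none in DRB10. ANKRD11 rose by 0.87 (SE 0.20, adjusted p = 0.0422) and CHTF8 by 1.31 (SE 0.24, adjusted p = 0.0242). Between the DRB doses 27 genes were lower and 5 higher, against 43.6% and 19.2% of all genes, CDCA5, which protects cohesin from WAPL, among the latter with 1.13 (SE 0.19, adjusted p = 0.00403).

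At 2 μg/mL of α-amanitin 5 of the 40 were called lower and none higher, where 3.74% of all genes were called lower and 2.29% higher. TOP2A, the topoisomerase of mitotic chromosomes, fell by 1.24 (SE 0.15, adjusted p = 0.016), from 5661 and 7202 to 2894 and 4198 reads. NCAPH fell by 1.00 (SE 0.22, adjusted p = 0.0464) and PLK1, the kinase that removes cohesin from chromosome arms, by 0.86 (SE 0.14, adjusted p = 0.0265). At 1 μg/mL and between the α-amanitin doses 0 were called. The 4 meiotic cohesin genes were not tested for lack of reads.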

How the data were processed

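Poly(A)+ RNA of A549 cells was made into strand-specific libraries (NEBNext Ultra II Directional) and sequenced with 75 bp reads. Per the labels and the study's methods, the authors aligned reads to GRCh37 with STAR (2.7.3a in the submitters' processing notes, another version in the paper) and counted splice junctions with the IPSA pipeline. The deposited files hold, within a text field, raw counts per intron of split reads and of unspliced reads at either end, and per exon of inclusion, skipping and unspliced reads, and the authors applied no scaling to them that is visible in the files. All 10 files were mapped to samples.

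Members and lists were chosen with earlier results of these data known. Introns and exons were matched to GENCODE release 44 (mapped to GRCh37) by splice site. Split reads were summed per gene and tested with limma 3.58.1 (voom, TMM as written for this work, R 4.3.3) after genes under 10 reads in all but 1 library, or under 15 summed over the fit, were dropped. 1 fit was made per drug, with DMSO and both doses (6 libraries). Exon inclusion, unspliced shares, donors at a shared acceptor and 3′ against 5′ introns were tested with a quasi-binomial F test whose spread limma moderated, floored at 1. Exons needed a Ψ denominator of 10 in every library of the fit and 10 inc and 10 exc reads over it. The unspliced test needed 20 reads in every library, and the 3′ against 5′ test 6 introns and 20 reads in each group of introns. Adjusted p-values are Benjamini-Hochberg over all features tested, threshold 0.05. Scripts were tested on simulated data. The count tools usual for such data were not used, because the counts sit in a text field. Limits from unlisted exons give each 10 reads. They are plain ratios and include no error from counting, scaling or the spread between libraries. Labels do not say that the 2 libraries of a group are separate cultures, so p-values measure the spread between libraries, which may be technical. Named genes are all 10 members, member exons and introns past the threshold, the alternative exon of each member with most skipping reads where Ψ was measured in every library, and at most 3 rises and 3 falls per comparison from the lists. Others are said to be chosen after their values were seen. Some genes that this rule or the lists name are not reported here.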

Additional observations from a re-analysis of the deposited data

How the results depend on the processing

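Of 258 alternatives to the counts of members called, 217 stayed within 1.5 times and 41 moved. A count of 0 in both was taken as having stayed, which says little about stability. All alternatives of the unspliced-share and late against early tests were of this kind, as were all gene counts of AMA1 against DMSO. The exon inclusion and donor counts of DRB25 stayed only where just the 2 groups were compared. Of 702 alternatives to single fold changes, 608 kept direction and side of the threshold, 44 lost their call, 22 gained one and 28 changed sign. The cause was not tested.

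In the DRB fit only SMC1A, RAD21, WAPL and NIPBL had an annotated intron listed in every library. No other member could therefore be called where such introns alone were used. Members called in DRB10 against DMSO (0) became 1 with total split reads, 1 with all 10 libraries in 1 fit and 2 with only the 2 groups compared. In DRB25 against DMSO (8) they were 2 with introns listed in every library (RAD21 and WAPL), 5 with unlisted introns at 10 reads (chosen after seeing the data) and 4 to 6 when 1 library was left out. In DRB25 against DRB10 (8) they were 3, 3 and 3 to 6 in the same order. In AMA2 against DMSO (0) they were 1 (CTCF), 4 (CTCF, PDS5A, STAG1 and WAPL) and 0 to 1. The exon inclusion calls of DRB25 (2 against each of DMSO and DRB10) became 0 with a Ψ denominator of 30, with no filter and without any 1 library (0 to 0). The donor calls (2 against each) became 0 with 30 reads at the acceptor and without any 1 library (0 to 0).

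The replicate numbers name libraries and no label says that a number marks a shared batch. Deviations of same-numbered libraries correlated with r of 0.0568 (DRB25 and AMA1) to 0.523 (AMA1 and AMA2) over 4786 genes. With the replicate number as a block, members called in AMA2 against DMSO became 5 (CTCF, PDS5A, RAD21, SMC3 and WAPL, where 11% of all genes were called lower), the exon inclusion and donor calls of DRB25 became 0, and CTCF lost its call in DRB25 against DMSO (7 members left of 8). In DRB25 against DRB10 6 of 8 were left, without CTCF and WAPL.

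The sign changes were these. With total split reads, SMC3 and STAG2 in DRB10 were 0.084 and 0.031, SMC1A in DRB25 against DRB10 was -0.33, and SMC3 and WAPL in AMA1 were 0.023 and 0.043. With unlisted introns at 10 reads, STAG1 in DRB10 was -0.012, PDS5B in DRB25 0.18 and PDS5B in AMA1 -0.15. With introns listed in every library, STAG1 and WAPL in AMA1 were 0.027 and 0.073. With only the 2 groups compared, SMC1A in DRB25 was 0.013. Leaving out 1 library at a time gave these ranges: SMC3 in DRB10 -0.17 to 0.055, STAG2 in DRB10 -0.23 to 0.010, STAG1 in DRB10 -0.29 to 0.71, SMC1A in DRB25 -0.17 to 0.0039, SMC3 in AMA1 -0.16 to 0.058, STAG2 in AMA1 -0.23 to 0.014, WAPL in AMA1 -0.21 to 0.10, PDS5B in AMA1 -0.28 to 0.37, NIPBL in AMA2 -0.23 to 0.062, STAG2 in AMA2 -0.32 to 4.5e-05, and for AMA2 against AMA1 STAG1 -1.85 to 0.47, STAG2 -0.22 to 0.10 and SMC1A -0.12 to 0.084.

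Where a group was left with 1 library, that library was taken to vary like the other groups. The listing minimum limits genes with few reads per intron, since up to 10 reads of an intron are not shown.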

Other observations

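The 5 genes outside the group whose log2 CPM over the 10 libraries was most like the mean standardised log2 CPM of the 10 members were LEMD2, PLK1, INTS3, SLC38A1 and DNMT1, with Pearson's r of 0.993, 0.993, 0.992, 0.992 and 0.991 among 6793 genes with a mean of at least 50 split reads. All points share the libraries. SMC3, STAG1, PDS5A and PDS5B had no listed intron in DRB25, so the DRB25 libraries weigh heavily in r. A correlation without them was not computed. INTS3, for example, was read 624 and 700 times in DMSO, 269 and 435 in DRB10 and 0 and 11 in DRB25, and DNMT1 2950 and 3436 times in DMSO and 570 and 1179 in DRB25.

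Of 1019 genes with over 800 split reads in both DMSO libraries, 11 (1.08%) had no listed intron in either DRB25 library: CCNB2, GMPS, KIF11, MCMBP, MTREX, NASP, NDC80, PDS5A, SMC3, TTK and USP24. This set was chosen after its values were seen. At over 200 split reads it was 253 of 3606 genes (7.02%).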
